A study of Homo sapiens with 12 samples.

Results

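Glycolysis turns glucose into pyruvate, and a cell can then reduce the pyruvate to lactate and export it, or pass it into mitochondria as acetyl-CoA. Most of these reactions have several isoenzymes encoded by separate genes, which differ in their regulation and in the tissues that use them. Many tumour lines draw strongly on glycolysis, and several of its genes are well known targets of the hypoxia-inducible factors and of the MYC family. The genes described here are 32 listed symbols that cover glucose uptake (SLC2A1, SLC2A3), phosphorylation (HK1, HK2), the enzymes from GPI to PKM with the regulators PFKFB2, PFKFB3 and PFKFB4, the lactate dehydrogenases LDHA and LDHB, the control of pyruvate dehydrogenase (PDK1, PDK2, PDK3, PDK4, PDP1, PDHA1, PDHB) and the lactate carriers SLC16A1 and SLC16A3. The rule names the symbols and sets no threshold on a measured value, and all 32 were found among the 34886 gene symbols of the deposited mRNA tables.

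The cells were H446, an established human line from a small cell lung cancer. For 8 h they received caffeic acid phenethyl ester (CAPE) at 40 µM, a compound of propolis best known for inhibiting NF-kB, or an equal volume of its solvent dimethyl sulfoxide (DMSO). RNA was taken from whole cultures, in which fewer cells of a type and less RNA per cell cannot be told apart. Messenger RNA was sequenced in 3 DMSO and 3 CAPE libraries, and the labels name no genetic change or second agent in either group. The sources do not say whether the libraries of a group came from separate cultures, so every p-value below measures the spread between these libraries, which may be technical.

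The 6 libraries held 17569997 to 20917508 estimated counts. Markers usual for small cell lung cancer were at or near 0: NEUROD1, INSM1, CHGA and NCAM1 had at most 2 counts in any library, POU2F3 at most 5, SYP at most 16 and DLL3 at most 29. The epithelial keratin KRT8 stood at 711 to 1493 TPM (transcripts scaled by transcript length and by the library's total) and KRT18 at 403 to 1058 TPM, while EPCAM reached 2.96 TPM. Of markers of other cells, CD3E had no count, PTPRC reached 1.95 TPM, and COL1A1 and DCN lay at 2.95 to 19.5 and 7.82 to 22.3 TPM. The DMSO 3 library stood apart from the other 5: its scaling factor (trimmed mean of M-values, TMM) was 0.699 against 1.07 to 1.09, and it had 16207 genes with a count against 17864 to 18587. For this reason each result is given with all 6 libraries and again without DMSO 3, which leaves 2 DMSO libraries against 3.

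Called here means an adjusted p under 0.05 by edgeR's quasi-likelihood test on the counts, with Benjamini-Hochberg adjustment over all genes tested. With 6 libraries, 4 of the 32 genes were higher with CAPE and 0 were lower: PFKFB4, ENO2, SLC2A3 and HK2. Of all 13595 genes tested, 203 (1.49%) were higher and 62 (0.456%) lower. The edgeR test at an unadjusted p under 0.05 marked 12 of the 32, beside 2183 of all genes (16.1%), and the median log2 fold change of the 32 was -0.05, against -0.01 over all genes. Without DMSO 3 the test called 22 of the 32 higher and 3 lower (PDK4, PDHB and PDHA1). In that fit 2836 of 13919 genes (20.4%) were higher and 2895 (20.8%) lower, and the median log2 fold change was 0.36 for the 32 genes and 0.00 over all genes. Rises of at least 2-fold were called for 8 of the 32 (SLC2A1, SLC2A3, HK2, PFKFB4, ALDOC, ENO1, ENO2 and PDK3), beside 610 of all genes (4.38%). The 7 genes called in neither direction without DMSO 3 were PFKM, PFKFB2, ALDOA, PKM, LDHB, PDK2 and PDP1.

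The 4 calls with 6 libraries held when DMSO 3 was left out, and most were lost when another library was. Without DMSO 1 or without DMSO 2, PFKFB4 alone of the 32 was called (edgeR adjusted p = 0.0483 and 0.0402), and without any of the 3 CAPE libraries 0 were, with 0.0566 to 0.0587 for PFKFB4. Over all genes, 9 of 13870 were called without DMSO 1 and 17 of 13883 without DMSO 2. Without CAPE 1, 2 or 3, 0, 6 and 0 of all genes were called. The fold changes in these fits ran from 2.37 to 2.42 for PFKFB4 and from 1.93 to 2.08 for ENO2 on the log2 scale. Rows named as pseudogenes or close copies were at most 6.35% of the TPM of their member for SLC2A3 and 3.24% for ENO1, and at most 0.455% for the others.

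**Figure D1:**
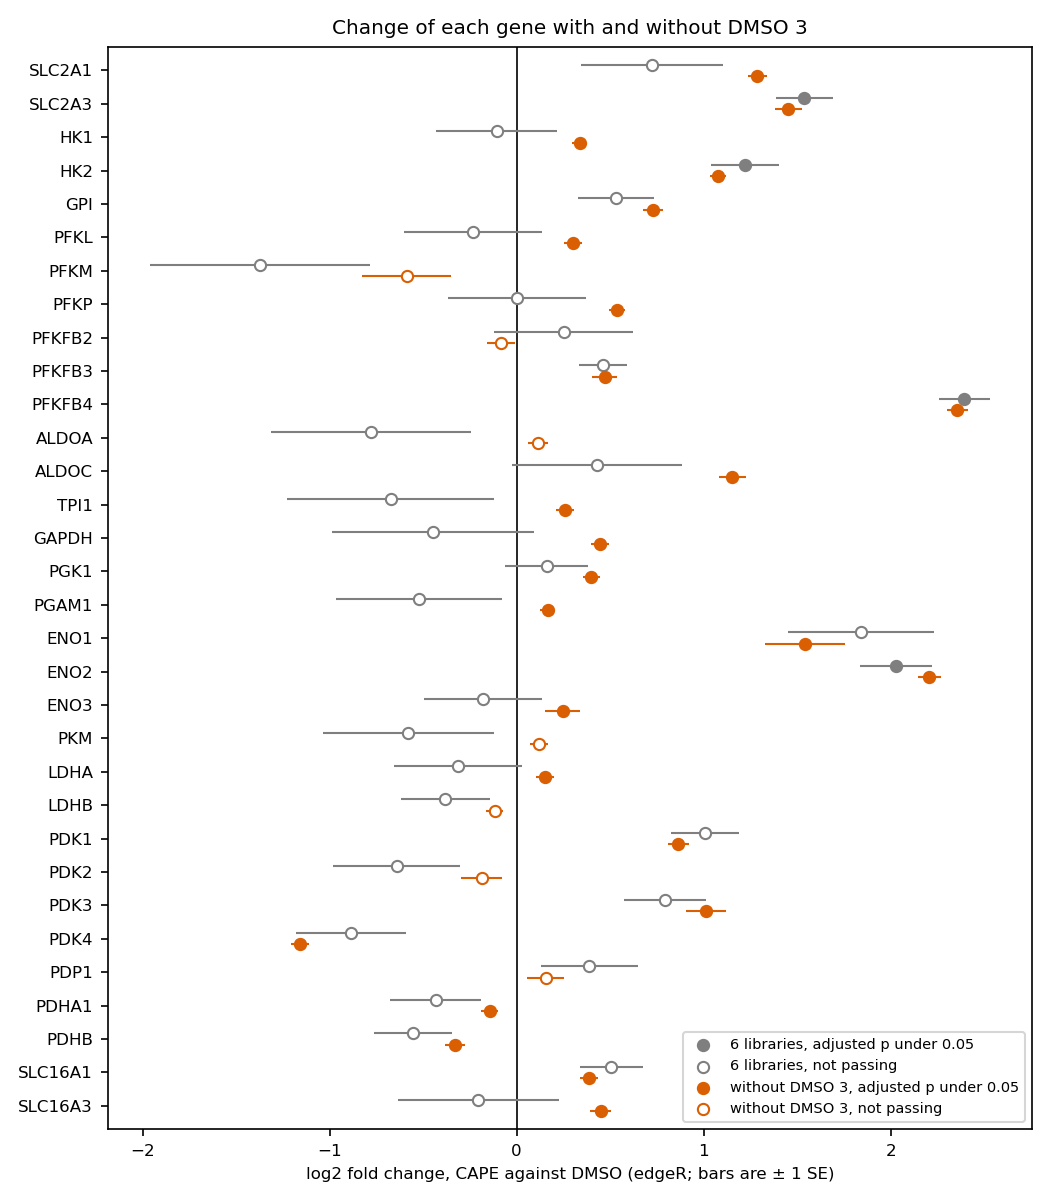
Log2 fold change of CAPE against DMSO (horizontal axis) for each of the 32 genes, ordered by step of the pathway, with the standard error as bars, for the fit with 6 libraries and the fit without DMSO 3. The standard errors are wide with 6 libraries for most genes, and PFKFB4 (2.39 and 2.36) and ENO2 (2.03 and 2.21) lie farthest to the right in both fits among the genes called with 6 libraries.

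The promoters of 3 of the 4 genes called with 6 libraries are shown because hypoxia-inducible factors bind DNA at the letters ACGTG or GCGTG, the core of the hypoxia response element, and HK2, PFKFB4 and ENO2 are known targets of those factors. Each run holds the 250 bases before the transcription start in the RefSeq promoter table (GRCh38.p14), 5′ to 3′ on the gene's strand, with every ACGTG or GCGTG, read on either strand, in capitals (on the opposite strand ACGTG reads CACGT). The PFKFB4 run is chr3:48556804-48557053 on the minus strand, which lies inside the annotated span of the gene and not before its outermost start, the ENO2 run chr12:6914330-6914579 on the plus strand, and the HK2 run chr2:74833877-74834126 on the plus strand. SLC2A3, PFKFB2, PDP1 and SLC16A1 had no entry.
PFKFB4: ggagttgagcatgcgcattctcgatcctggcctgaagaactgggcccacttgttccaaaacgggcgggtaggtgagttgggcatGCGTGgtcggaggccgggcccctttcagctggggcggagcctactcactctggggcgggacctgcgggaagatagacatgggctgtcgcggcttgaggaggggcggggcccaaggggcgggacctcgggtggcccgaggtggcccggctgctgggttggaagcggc
ENO2: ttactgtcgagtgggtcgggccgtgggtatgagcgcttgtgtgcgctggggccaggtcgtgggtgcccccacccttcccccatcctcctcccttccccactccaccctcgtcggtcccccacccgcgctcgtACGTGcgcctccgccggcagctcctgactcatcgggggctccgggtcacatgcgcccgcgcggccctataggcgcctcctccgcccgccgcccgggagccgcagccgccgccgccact
HK2: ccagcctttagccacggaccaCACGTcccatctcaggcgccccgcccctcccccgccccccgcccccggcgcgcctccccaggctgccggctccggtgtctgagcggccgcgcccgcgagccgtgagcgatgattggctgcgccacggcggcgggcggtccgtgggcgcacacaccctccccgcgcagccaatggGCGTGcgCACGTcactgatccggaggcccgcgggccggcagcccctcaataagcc
PFKFB4 had 1 match, a GCGTG 162 bases before the start, and ENO2 had 1 match, an ACGTG 114 bases before it. HK2 had 3: ACGTG on the opposite strand at 225 and 44 bases before the start, and GCGTG at 51 bases before it. Among the 28 genes with an entry, 10 had an ACGTG (35.7%, against 18.5% of all 35116 promoters of that length) and 11 a GCGTG (39.3%, against 32.2%). Either sequence was present in 16 of 28 (57.1%, against 43.2% of all promoters). The comparisons with all promoters were not matched for GC content, which ran from 35.6% (PDK1) to 79.2% (PFKFB3) among the 28. The E-box CACGTG, which MYC binds and which contains ACGTG, was present in 4 of 28 (14.3%, against 6.35%), and the C/EBP-ATF element TGATGNAAT in 1 of 28, that of HK1 (3.57%, against 0.889%). Of the genes called at least 2-fold higher without DMSO 3, ALDOC, ENO1 and PDK3 also had an ACGTG or GCGTG, and SLC2A1 had neither. Of the 3 called lower, PDHB had 3 ACGTG and 3 GCGTG, PDHA1 had 3 GCGTG and PDK4 had neither. These are matches of letters on either strand, not binding sites, and their part in the changes was not tested.

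Both glucose transporter genes were called higher without DMSO 3, and SLC2A3 in both fits. SLC2A3 (GLUT3, the high-affinity neuronal glucose transporter, chr12:7919230-7936187) had 21.6, 23.9 and 18.9 CPM (counts scaled by the TMM-adjusted library size, not by length) in DMSO 1, 2 and 3 and 61.8, 60.0 and 65.3 CPM in CAPE 1, 2 and 3. Every CAPE library lay above every DMSO library, and the log2 fold change was 1.54 ± 0.15 (SE; edgeR adjusted p = 0.0158). Without DMSO 3 it was 1.45 ± 0.073. SLC2A1 (GLUT1, the widespread basal transporter, chr1:42925353-42958868) had 82.7, 84.9 and 205 CPM in DMSO and 212, 197 and 206 CPM in CAPE. The DMSO 3 value fell among the CAPE values, and SLC2A1 was not called with 6 libraries (log2 fold change 0.72 ± 0.38, edgeR adjusted p = 0.352). Without DMSO 3 it rose 2.44-fold (log2 1.29 ± 0.050, edgeR adjusted p = 6.03e-11). On the TPM scale, which divides by length and uses no TMM factor, the picture in DMSO 3 was the opposite. SLC2A1 had 108, 111 and 75.9 TPM in DMSO and 315, 272 and 284 TPM in CAPE, with no overlap between the groups. By TPM SLC2A1 was the more abundant transporter in all libraries, and SLC2A3 made up 4.46 to 9.72% of their joint TPM in DMSO and 9.16 to 11.3% in CAPE, ranges that overlapped.

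**Figure D2:**
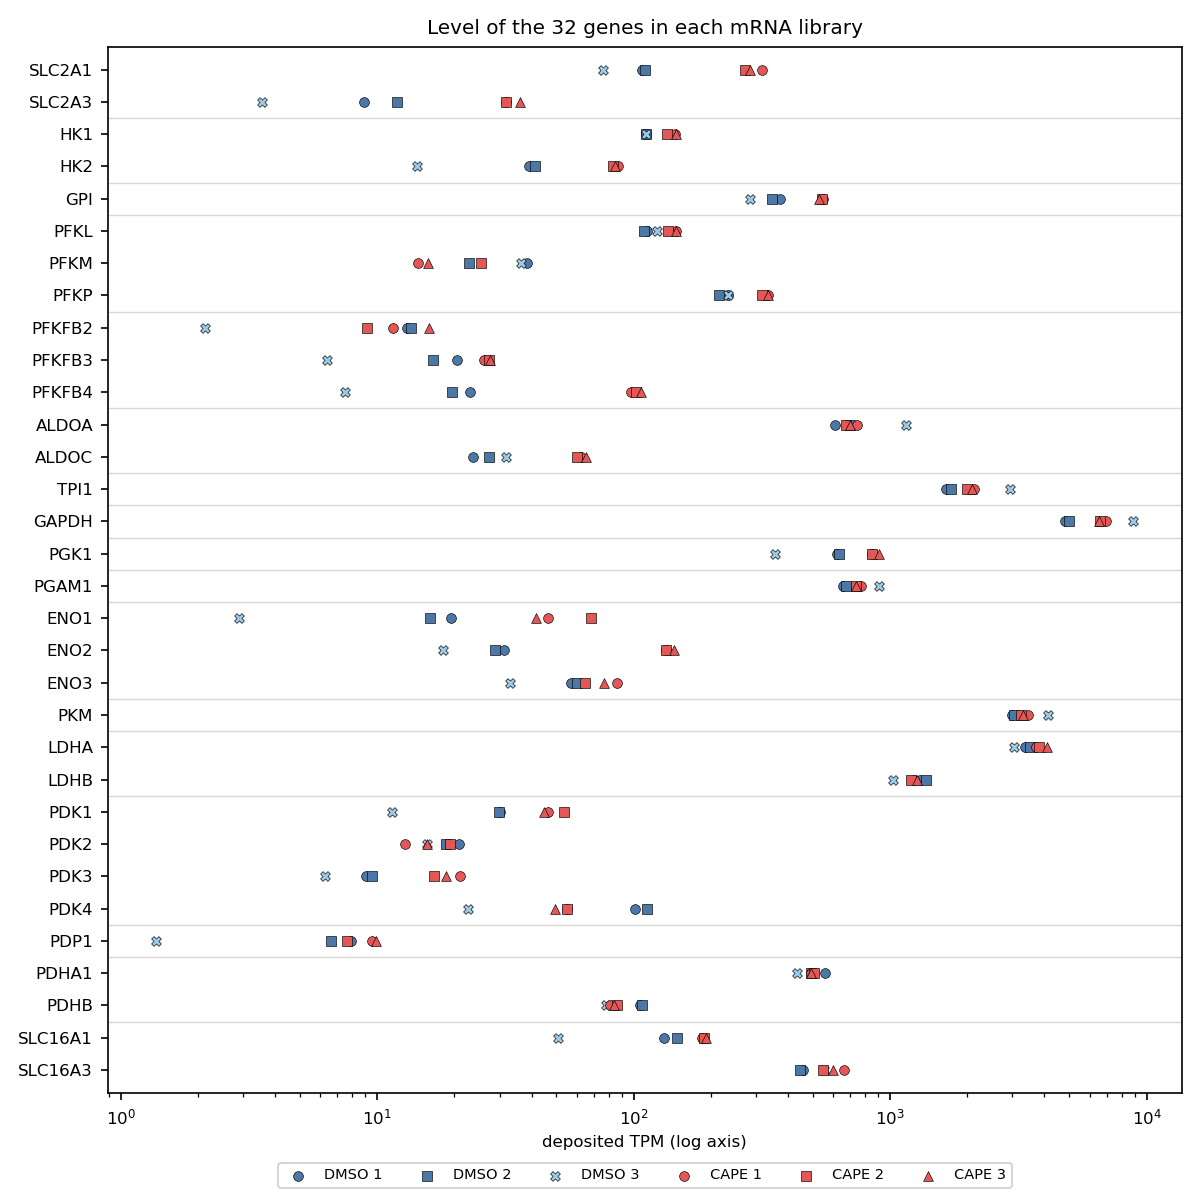
Level of each of the 32 genes in every library (TPM, log axis), ordered by step, with DMSO and CAPE libraries as separate points and DMSO 3 marked. GAPDH, PKM and LDHA are the most abundant, between 3001 and 8867 TPM in all libraries, and DMSO 3 lies below the other DMSO libraries for 21 genes and above both for 10.

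The hexokinases trap glucose in the cell by phosphorylation, HK1 in most tissues and HK2 mainly in muscle, fat and tumours. HK2 (chr2:74834127-74893359) had 152, 160 and 112 CPM in DMSO and 335, 325 and 329 CPM in CAPE. The groups were far apart, and HK2 rose by 1.22 ± 0.18 on the log2 scale (edgeR adjusted p = 0.0355), 1.08 ± 0.043 without DMSO 3. HK1 had 262, 258 and 544 CPM in DMSO against 336, 317 and 334 CPM in CAPE, so the CAPE libraries lay between DMSO 3 and the other DMSO libraries. The HK1 fold change was -0.11 ± 0.32 (edgeR adjusted p = 0.845) with 6 libraries and 0.34 ± 0.042 (called) without DMSO 3. On the TPM scale HK1 was flat across DMSO, at 112 in each library, and 145, 135 and 146 TPM in CAPE. HK2 made up 26.0, 27.0 and 11.3% of hexokinase TPM in DMSO and 37.4, 38.1 and 36.6% in CAPE. That share did not overlap between the groups.

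Glucose-6-phosphate is rearranged by GPI and phosphorylated again by phosphofructokinase, the main control point of the pathway. GPI had 163, 141 and 221 CPM in DMSO and 248, 261 and 249 CPM in CAPE, and was called only without DMSO 3 (log2 0.73 ± 0.056; 0.53 ± 0.20 with 6 libraries, edgeR adjusted p = 0.284). PFKP, the platelet type and the most abundant of the 3 phosphofructokinase genes, had 342, 326 and 788 CPM in DMSO and 495, 467 and 496 CPM in CAPE. Its fold change was 0.00 ± 0.37 with 6 libraries and 0.54 ± 0.043 (called) without DMSO 3. PFKL, the liver type, changed from -0.23 ± 0.37 to 0.30 ± 0.049 (called) between the same fits. PFKM, the muscle type, varied within both groups, at 49.5, 31.1 and 129 CPM in DMSO and 19.3, 40.5 and 21.0 CPM in CAPE, and was called in neither fit (log2 -1.37 ± 0.59 and -0.59 ± 0.24). As shares of phosphofructokinase TPM, PFKP stood at 60.7 ± 1.2% in DMSO and 67.0 ± 0.67% in CAPE (SD, n = 3 each), PFKM at 8.60 ± 1.8% and 3.81 ± 1.3%, and PFKL at 30.7 ± 1.2% and 29.1 ± 0.65%. The first 2 shares did not overlap between the groups, and that of PFKL did.

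The PFKFB genes encode bifunctional enzymes that make and break down the sugar bisphosphate that activates phosphofructokinase. PFKFB4 (chr3:48517684-48563136) showed the largest log2 fold change of the 32 genes in both fits. It had 31.4, 31.1 and 29.1 CPM in DMSO and 159, 157 and 166 CPM in CAPE. On this scale each group was a tight set, with DMSO 3 beside the other 2. On the TPM scale DMSO 3 lay below them, at 23.0, 19.5 and 7.49 TPM in DMSO and 97.9, 102 and 107 TPM in CAPE. The log2 fold change was 2.39 ± 0.14 (edgeR adjusted p = 0.00284) with 6 libraries and 2.36 ± 0.057, a rise of 5.12-fold, without DMSO 3. PFKFB3, a form with high kinase activity, had 35.3, 33.7 and 35.3 CPM in DMSO and 49.7, 45.7 and 48.3 CPM in CAPE; it was called only without DMSO 3 (log2 0.47 ± 0.067; 0.46 ± 0.13 with 6 libraries, edgeR adjusted p = 0.174). PFKFB2, the form best known from heart, had 36.5, 36.9 and 14.0 CPM in DMSO and 32.7, 33.7 and 37.7 CPM in CAPE and was called in neither fit. By TPM the order was PFKFB4, PFKFB3, PFKFB2 in all 6 libraries, but the shares differed. PFKFB4 made up 40.7, 39.4 and 46.7% of PFKFB TPM in DMSO and 72.3, 73.6 and 71.0% in CAPE, while PFKFB3 went from 36.5 ± 3.3% to 19.1 ± 0.73% and PFKFB2 from 21.2 ± 7.1% to 8.56 ± 2.0%. The joint PFKFB level was 16.0 to 56.5 TPM in DMSO and 135 to 150 TPM in CAPE.

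**Figure D3:**
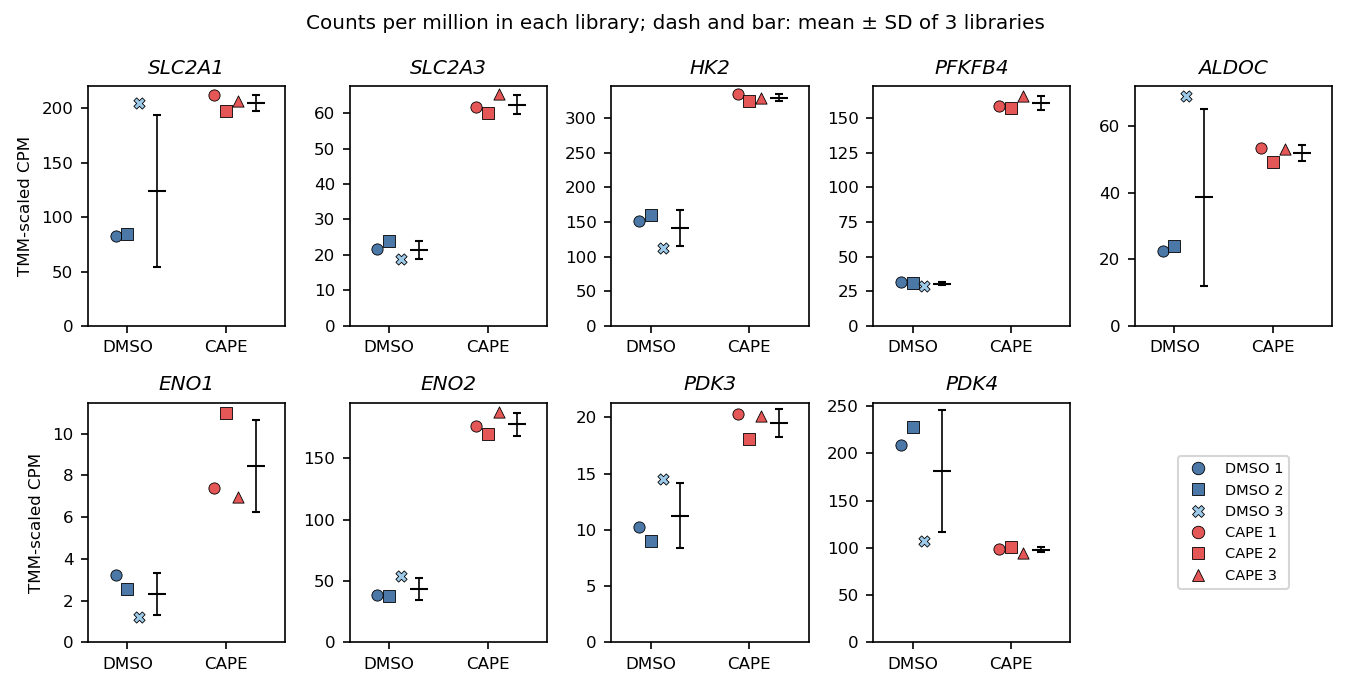
CPM in each library for genes with large changes, 1 panel per gene, with DMSO and CAPE libraries as points and DMSO 3 marked. For PFKFB4, ENO2, SLC2A3 and HK2 the CAPE libraries lie above all 3 DMSO libraries, while for SLC2A1 the DMSO 3 point (205 CPM) lies among the CAPE points (197 to 212 CPM).

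Aldolase splits the sugar bisphosphate, and TPI1 interconverts its products. ALDOA, the main aldolase here, had 459, 512 and 1738 CPM in DMSO and 532, 499 and 550 CPM in CAPE, and was called in neither fit (log2 -0.78 ± 0.54 and 0.11 ± 0.051). ALDOC, the form best known from brain, had 22.5, 24.1 and 69.2 CPM in DMSO and 53.5, 49.2 and 53.0 CPM in CAPE. The DMSO 3 value was the highest of all 6, and ALDOC was called only without it, with a rise of 2.23-fold (log2 1.15 ± 0.073, edgeR adjusted p = 1.22e-08). Within each library ALDOC was a small part of aldolase TPM, 2.69 to 3.76% in DMSO and 7.76 to 8.56% in CAPE, with no overlap. TPI1 had 1038, 1084 and 3969 CPM in DMSO and 1293, 1242 and 1284 CPM in CAPE. Its fold change was -0.67 ± 0.55 with 6 libraries and 0.26 ± 0.047 (called) without DMSO 3.

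GAPDH and PKM were, with LDHA, the most abundant of the 32 genes by TPM. GAPDH, which makes the first NADH of the pathway, had 3783, 3827 and 13628 CPM in DMSO and 5364, 5092 and 5134 CPM in CAPE. DMSO 3 lay far above every other library, and the fold change was -0.45 ± 0.54 (edgeR adjusted p = 0.621) with 6 libraries and 0.45 ± 0.049 (edgeR adjusted p = 4.62e-06) without it. PGK1, the first ATP-forming step, had 879, 888 and 1367 CPM in DMSO and 1196, 1164 and 1143 CPM in CAPE, and was called only without DMSO 3 (log2 0.40 ± 0.045). PGAM1, a mutase, had 705, 717 and 2028 CPM in DMSO and 820, 790 and 790 CPM in CAPE, and was likewise called only without DMSO 3 (log2 0.17 ± 0.041). PKM, the pyruvate kinase of most tissues and tumours, had 4164, 4207 and 12108 CPM in DMSO and 4705, 4440 and 4548 CPM in CAPE and was called in neither fit (log2 -0.58 ± 0.46 and 0.12 ± 0.049). For ALDOA, TPI1, GAPDH, PGAM1 and PKM the DMSO 3 value exceeded all CAPE values on the CPM and the TPM scale. The CAPE rises without DMSO 3 of TPI1 (1.20-fold), PGAM1 (1.12-fold) and PGK1 (1.32-fold) were small beside that of PFKFB4.

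Enolase has 3 genes, of which ENO1 is the general form, ENO2 the neuronal form and a serum marker of small cell lung cancer, and ENO3 the muscle form. ENO2 (chr12:6914580-6923697) had 38.9, 37.8 and 53.7 CPM in DMSO and 176, 169 and 188 CPM in CAPE. All CAPE libraries were above all DMSO libraries, and ENO2 rose by 2.03 ± 0.19 on the log2 scale (edgeR adjusted p = 0.0137), or 4.62-fold without DMSO 3 (log2 2.21 ± 0.060). ENO3 had 16.9, 18.5 and 36.2 CPM in DMSO and 19.8, 20.9 and 22.4 CPM in CAPE and was called only without DMSO 3, close to the threshold (log2 0.25 ± 0.093, edgeR adjusted p = 0.0477). ENO1 was listed with only 18 to 207 counts, 3.21, 2.56 and 1.23 CPM in DMSO and 7.40, 11.0 and 6.95 CPM in CAPE. The groups did not overlap, and ENO1 was called only without DMSO 3 (log2 1.54 ± 0.21, edgeR adjusted p = 4.18e-05; 1.84 ± 0.39 with 6 libraries, edgeR adjusted p = 0.094). The length implied by the counts and TPM of the ENO1 row, relative to the median gene, was 0.125, shorter than for all but 1.35% of genes tested, and that of ENO3 was 0.229 (percentile 4.24). How transcripts were assigned to symbols is not given in the sources used here, so these rows may not hold all reads of their genes, and enolase shares are to be read with that limit. As listed, ENO2 went from 30.0 ± 3.2% of enolase TPM in DMSO to 51.8 ± 2.7% in CAPE (SD, n = 3 each) and ENO3 from 57.1 ± 4.0% to 28.6 ± 4.0%, neither overlapping, while the ENO1 shares overlapped (5.37 to 18.0% and 15.9 to 25.5%).

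Of the 14 enzymes from GPI to PKM, 11 were called higher and 0 lower without DMSO 3, against 20.4% and 20.8% of all genes. The 11 include ENO1 and ENO3, whose rows may not hold all reads of their genes. With 6 libraries ENO2 was the 1 called (1.49% of all genes were called higher). By edgeR 3 of the 14 had an unadjusted p under 0.05, near the 16.1% of all genes. The median log2 fold change of these 14 was 0.35 without DMSO 3 and -0.21 with it, and the median departure of DMSO 3 from the mean of DMSO 1 and 2 was 1.38 on the log2 CPM scale.

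Lactate dehydrogenase converts pyruvate to lactate and back, and the LDHA subunit favours lactate formation while LDHB favours its use. LDHA had 2852, 2990 and 6286 CPM in DMSO and 3259, 3219 and 3274 CPM in CAPE, and without DMSO 3 it was called with a rise of 1.11-fold (log2 0.15 ± 0.049; -0.31 ± 0.34 with 6 libraries). LDHB had 910, 951 and 1501 CPM in DMSO and 857, 838 and 888 CPM in CAPE; it lay lower in each CAPE library than in each DMSO library and was called in neither fit (log2 -0.38 ± 0.24 and -0.12 ± 0.045, edgeR adjusted p = 0.379 and 0.0512). The LDHB share of lactate dehydrogenase TPM was 28.0, 28.2 and 25.2% in DMSO and 25.0, 24.0 and 23.7% in CAPE, with no overlap but with DMSO 3 close to CAPE 1. Lactate leaves the cell through monocarboxylate carriers. SLC16A1 (MCT1) had 321, 361 and 265 CPM in DMSO and 444, 445 and 455 CPM in CAPE and was called only without DMSO 3 (log2 0.39 ± 0.048; 0.51 ± 0.17 with 6 libraries, edgeR adjusted p = 0.235). SLC16A3 (MCT4, known for exporting lactate from glycolytic cells) had 476, 470 and 1297 CPM in DMSO and 708, 599 and 638 CPM in CAPE. It was the more abundant carrier by TPM and was also called only without DMSO 3 (log2 0.45 ± 0.056). Its share of the 2 carriers was 77.8, 75.1 and 91.6% in DMSO and 78.2, 74.4 and 75.8% in CAPE, which overlapped.

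Pyruvate dehydrogenase commits pyruvate to the mitochondria. Its kinases PDK1 to PDK4 switch it off, its phosphatase PDP1 switches it on, and PDHA1 and PDHB encode the subunits of its first component. Without DMSO 3, PDK1 and PDK3 were called higher and PDK4 lower. PDK1, a known hypoxia-inducible target, had 70.9, 73.7 and 52.2 CPM in DMSO and 130, 140 and 127 CPM in CAPE; the groups did not overlap, and PDK1 missed the threshold with 6 libraries (log2 1.01 ± 0.18, edgeR adjusted p = 0.0577) and was called without DMSO 3 (log2 0.86 ± 0.056). PDK3 had 10.2, 9.03 and 14.5 CPM in DMSO and 20.3, 18.1 and 20.1 CPM in CAPE and was called without DMSO 3 (log2 1.01 ± 0.11, edgeR adjusted p = 3.21e-06). PDK4, the starvation- and fatty acid-responsive kinase, had 209, 228 and 107 CPM in DMSO and 98.8, 101 and 95.1 CPM in CAPE. Its DMSO 3 value was close to the CAPE values, and PDK4 was not called with 6 libraries (log2 -0.89 ± 0.29, edgeR adjusted p = 0.234) but was called lower without DMSO 3 (log2 -1.16 ± 0.050, edgeR adjusted p = 1.68e-10). PDK2 was called in neither fit.

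By TPM PDK4 was the most abundant kinase in all 6 libraries. Its share of kinase TPM was 62.8 and 66.0% in DMSO 1 and 2, 40.3% in DMSO 3 and 40.6, 38.2 and 38.5% in CAPE. PDK1 made up 18.7, 17.5 and 20.4% in DMSO and 34.3, 37.0 and 34.9% in CAPE, with no overlap, and PDK3 7.50 ± 3.2% and 13.8 ± 2.1%, also without overlap. The PDK2 share overlapped. PDHA1 and PDHB were lower in each CAPE library than in each DMSO library on the CPM scale (231 to 246 against 253 to 438 for PDHA1, 71.0 to 75.3 against 91.8 to 139 for PDHB). Both were called lower only without DMSO 3, PDHB by 0.33 ± 0.052 and PDHA1 by 0.14 ± 0.045 on the log2 scale, and the sign of the log2 fold change was also negative with 6 libraries (-0.55 ± 0.21 and -0.43 ± 0.24). The TPM of both genes overlapped between the groups with 6 libraries. Without DMSO 3 those of PDHB did not (106 and 108 TPM in DMSO, 81.2 to 86.4 TPM in CAPE), and those of PDHA1 still did. PDP1 had at most 335 counts and was called in neither fit.

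**Figure D4:**
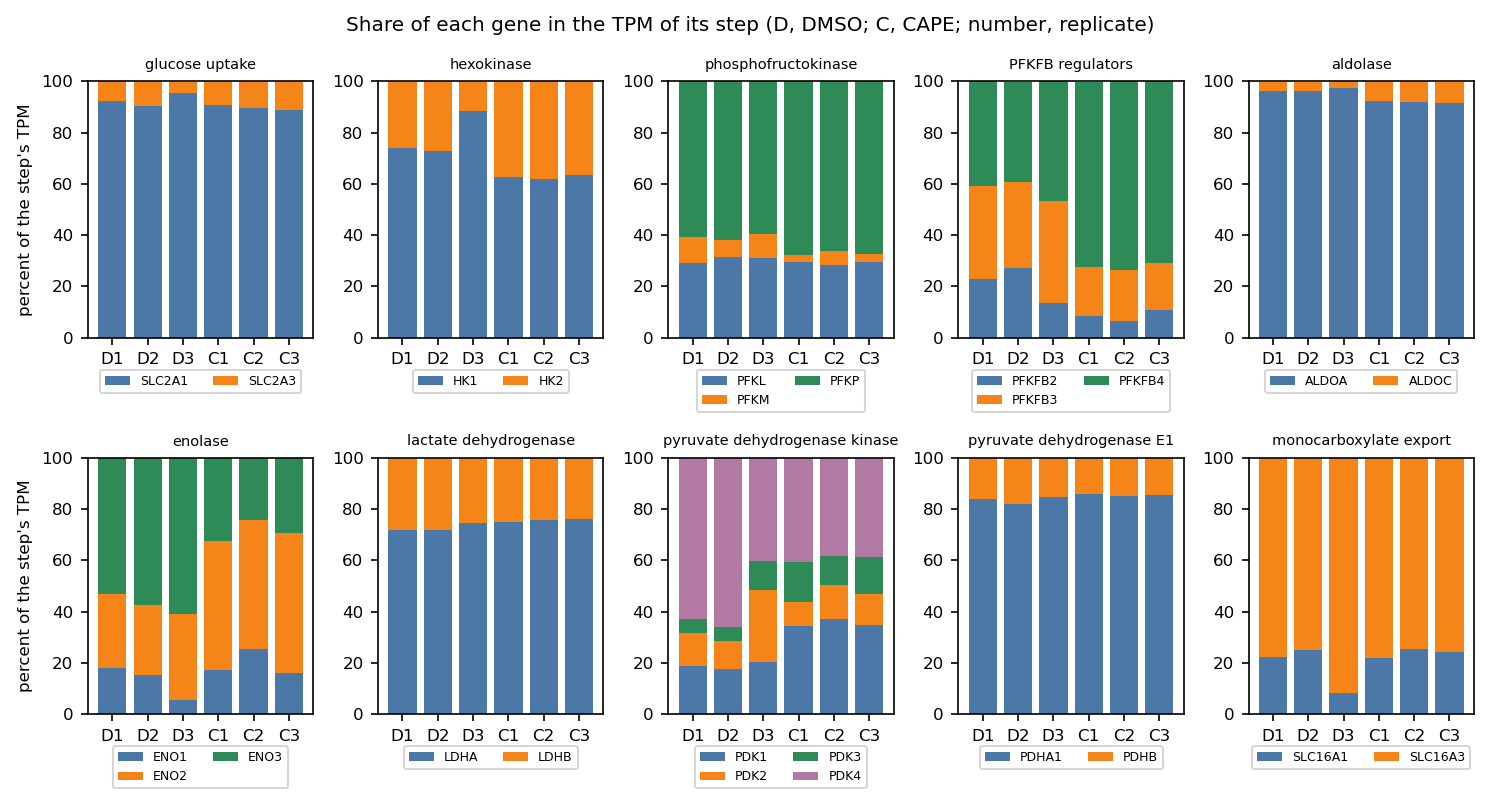
Share of each gene in the summed TPM of its step (percent), in every library, for the steps with several genes. PFKFB4 goes from 39.4 to 46.7% in DMSO to 71.0 to 73.6% in CAPE and ENO2 from 27.4 to 33.5% to 50.2 to 54.9%. The tested shares of PFKL, SLC16A3, PDK2, PDK4, ENO1 and SLC2A3 overlap between the groups.

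A share within a library needs no scaling factor between libraries, but it is not free of the departure of DMSO 3, which ran with transcript length. Isoforms of a step can differ in length, for example HK2 (2.94 relative to the median gene) and HK1 (1.77). The part of length in the shares was not tested. By an exact permutation test over libraries, two-sided, 19 shares were tested. The PDHB share compares genes for subunits of the same component, not alternative isoforms. With 3 libraries against 3 the smallest p this test can give is 0.10, which is also the smallest with 2 against 3, so no share could pass 0.05. The 13 shares whose groups did not overlap each had that smallest exact permutation p of 0.1 (0.146 after adjustment over the 19). These were HK2, PFKP, PFKM, PFKFB2, PFKFB3, PFKFB4, ALDOC, ENO2, ENO3, LDHB, PDK1, PDK3 and PDHB. Among them the largest difference was that of PFKFB4, 30.1 percentage points higher in CAPE with 6 libraries and 32.3 without DMSO 3. ENO2 differed by 21.8 and 23.6 points, ENO3 by -28.5 and -26.5, PDK1 by 16.5 and 17.3, and HK2 by 16.0 and 10.9. Shares of the same step depend on each other and are not separate results, and a lower share need not be a lower level. ENO3 had 32.9 to 59.9 TPM in DMSO and 64.8 to 86.0 TPM in CAPE. PFKFB3 had 6.39 to 20.5 TPM in DMSO and 26.0 to 27.5 TPM in CAPE. The TPM of PFKFB2, PFKM, LDHB and PDHB overlapped between the groups. The PDK4 share differed by -17.2 points with 6 libraries, overlapping, and by -25.3 points without DMSO 3, not overlapping.

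Summed over a step and given without a test, the transporters lay at 79.5 to 123 TPM in DMSO and 303 to 347 TPM in CAPE. Enolase lay at 53.8 to 108 TPM in DMSO and 263 to 267 TPM in CAPE, whereas aldolase was 632 to 1185 TPM in DMSO and 735 to 803 TPM in CAPE. The kinases of pyruvate dehydrogenase summed to 161 and 170 TPM in DMSO 1 and 2, 55.9 TPM in DMSO 3 and 129 to 145 TPM in CAPE. The 32 genes together made up 1.97, 2.03 and 2.65% of all TPM in DMSO and 2.48, 2.38 and 2.45% in CAPE, so the CAPE libraries lay between DMSO 3 and the other 2.

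Counted by non-overlap, without a test, the CPM of 11 of the 32 genes were higher in all CAPE libraries than in all DMSO libraries, against 21.4% of the 13595 genes tested, and 5 were lower (20.6%). The TPM of 18 were higher (25.8% of all genes tested) and of 0 lower (8.17%). The 11 are 34.4% of the 32. The DMSO 3 library stood differently on the 2 scales: its CPM were above those of DMSO 1 and 2 in 23 genes and below in 9, whereas its TPM were above in 10 and below in 21. DMSO 3 had the highest CPM of all 6 libraries in 18 of the 32.

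The departure of DMSO 3 from the mean of DMSO 1 and 2 was 1.90 on the log2 CPM scale for TPI1 and 1.84 for both GAPDH and ALDOA at one end, and -1.39 for PFKFB2 at the other. The median over the 32 was 0.72, against 0.00 for all genes. Over all genes this departure ran with transcript length: split into 10 classes by length, the genes with the shortest transcripts had a median of 0.94 and those with the longest -1.02. For 11 genes the sign of the fold change turned when DMSO 3 was left out (HK1, PFKL, PFKFB2, ALDOA, TPI1, GAPDH, PGAM1, ENO3, PKM, LDHA and SLC16A3), from below 0 to above 0 in all but PFKFB2. What sets DMSO 3 apart, and its part in these values, was not tested.

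**Figure D5:**
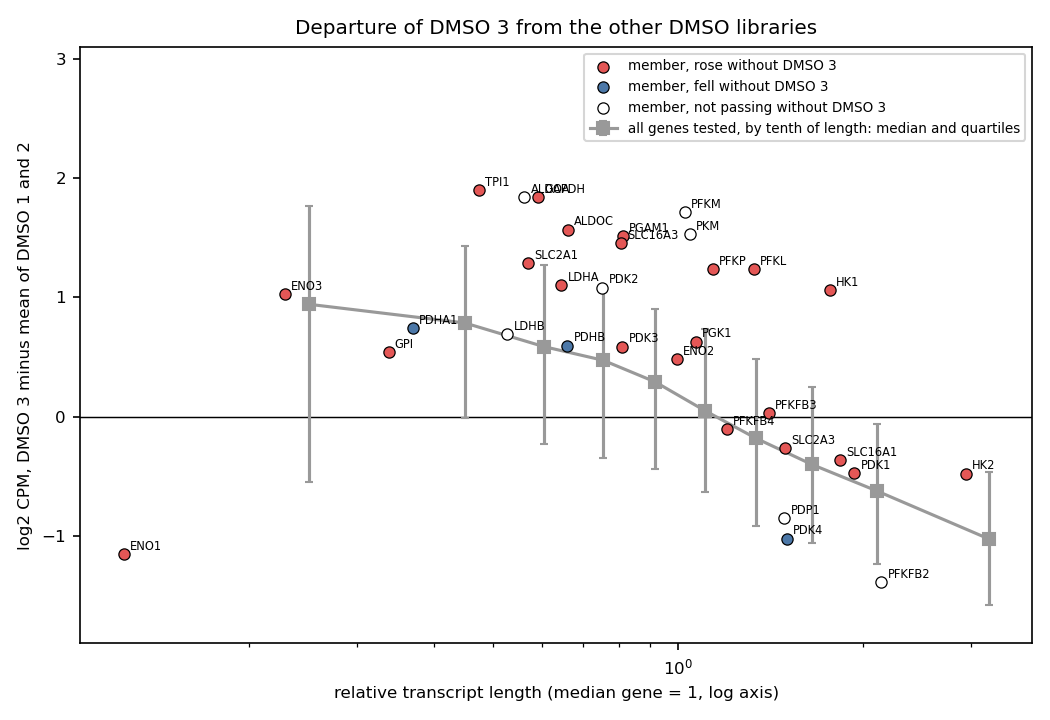
Departure of DMSO 3 from the mean of DMSO 1 and 2 (log2 CPM, vertical axis) against transcript length relative to the median gene (log axis) for each of the 32 genes, with the medians and quartiles of all genes tested in 10 classes of length. TPI1 (1.90), ALDOA (1.84) and GAPDH (1.84) are the highest and PFKFB2 (-1.39) is the lowest.

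Genes around the pathway were taken from lists of related function. Of all genes, 1.49% were called higher and 0.456% lower with 6 libraries, and 16.1% had an unadjusted p under 0.05 by edgeR. Without DMSO 3, 20.4% of all genes were called higher and 20.8% lower. The counts of the lists are to be read beside these shares. Among 10 tested genes of other glucose transporters, isoenzymes and regulators none was called with 6 libraries (edgeR; 0 had an unadjusted p under 0.05), and SLC2A13 had the smallest p (log2 0.63, adjusted p = 0.399). Without DMSO 3, 2 were higher, SLC2A6 (0.28) among them, and GAPDHS, the sperm form of GAPDH, was lower (-0.43). Of 14 tested genes of pyruvate, lactate and acetyl-CoA use, GPT2, the mitochondrial alanine aminotransferase that links pyruvate and glutamate, was called with 6 libraries (log2 1.83 ± 0.20, edgeR adjusted p = 0.0202). GPT2 had 51.2, 52.4 and 76.1 CPM in DMSO and 216, 209 and 212 CPM in CAPE, with no overlap. Without DMSO 3, 5 of these 14 were higher, the largest GPT2 (2.03) and PCK2 (1.74), mitochondrial phosphoenolpyruvate carboxykinase, and 5 were lower.

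Of 19 tested genes of the pentose phosphate, hexosamine and glycogen branches, GBE1, the glycogen branching enzyme, was called with 6 libraries (log2 0.89 ± 0.13, edgeR adjusted p = 0.0350). It had 125, 127 and 127 CPM in DMSO and 223, 233 and 245 CPM in CAPE. On the TPM scale DMSO 3 lay apart, at 68.5, 66.4 and 31.6 TPM in DMSO and 119, 126 and 132 TPM in CAPE. Without DMSO 3, 8 of the 19 were higher and 4 lower, beside 20.4% and 20.8% of all genes. GYS1, muscle glycogen synthase (1.13), and GBE1 (0.89) had the largest changes. Of 17 tested tricarboxylic acid cycle genes none was called with 6 libraries (edgeR; 3 had an unadjusted p under 0.05, and SDHD had the smallest p, log2 -0.40, adjusted p = 0.225). Without DMSO 3, 1 was higher and 8 lower, OGDH (-0.39) and citrate synthase CS (-0.38) by the most, and the median of the list was -0.12, against 0.00 for all genes.

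Of 14 tested genes for hypoxia-inducible factors, their hydroxylases and glucose-sensing factors, EGLN1, the oxygen-sensing prolyl hydroxylase that is itself a known target of these factors, was called with 6 libraries (log2 1.58 ± 0.16, edgeR adjusted p = 0.0158). EGLN1 had 95.2, 102 and 78.6 CPM in DMSO and 267, 274 and 282 CPM in CAPE. Without DMSO 3, 4 of the 14 were higher, EGLN1 (1.47) and EGLN3 (1.34) by the most, and 6 were lower. Over all genes the shares were 20.4% higher and 20.8% lower. HIF1A, the mRNA of an oxygen-labile subunit, named here after its values were seen, was among those lower without DMSO 3 (-0.26). With 6 libraries its log2 fold change was 0.04 ± 0.32. EPAS1, another factor gene, went the other way and was among those higher without DMSO 3 (0.59). It was not called with 6 libraries (log2 0.66 ± 0.15, edgeR adjusted p = 0.105). ARNT was lower without DMSO 3 (-0.16), and HIF3A was called in neither fit.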

How the data were processed

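Messenger RNA of H446 cells was analysed in 3 DMSO and 3 CAPE libraries, grouped by their labels; the miRNA libraries of the series were not used here. The deposited estimated counts are whole numbers for each symbol. The submitters' processing notes name bcl2fastq, kallisto 0.46.1 and the GRCh38 build. The authors also deposited TPM per gene symbol, which divide by transcript length. The way transcripts were summed to symbols and the release of the annotation are not stated in the sources.

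Genes were filtered with filterByExpr, scaled with TMM factors and tested with edgeR's quasi-likelihood test (R 4.3.3, edgeR 4.0.16) with the group as the only term. The p-values were adjusted by Benjamini-Hochberg over all genes, 13595 with 6 libraries and 13919 without DMSO 3. Standard errors were taken as the absolute log2 fold change over the root of the F statistic. CPM are relative to TMM-scaled library sizes, and log2 CPM used a prior count of 2. Relative transcript length is the ratio of count to TPM, scaled to the median gene. Shares of a step used TPM and an exact permutation test. Library totals of 17569997 to 20917508 counts make counting error small for most of the genes. ENO1, with 18 to 207 counts, had the fewest, followed by PDP1 (117 to 335) and PDK3 (173 to 393). No 2 libraries held identical values.

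The 32 genes, the other gene lists, the marker lists and the rules were chosen with earlier results of these data known. Values in every library were given for genes called with 6 libraries, and for genes called without DMSO 3 that changed at least 2-fold or lead their step; most others were added for completeness. From each other list the genes called with 6 libraries, or else that with the smallest p, and the 2 largest changes called without DMSO 3 were named. An item of the marker lists is not reported here.

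Alternatives were DESeq2 1.42.0, limma 3.58.1 (voomWithQualityWeights, and log2(TPM + 1) and log2(TPM + 0.1)), other scaling factors, no filter, the replicate number as a block, and each library left out. Alternatives on the 5 libraries without DMSO 3 were added after seeing the data. The tests were also run on simulated data. Those data were drawn without the length-dependent departure of DMSO 3, so the runs cannot show how the tests behave with it. Gene coordinates and promoters are RefSeq's, GRCh38.p14, and 28 of the 32 genes had a promoter entry.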

Additional observations from a re-analysis of the deposited data

How the results depend on the processing

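With 6 libraries, 265 genes were called, 4 of the 32 glycolytic genes higher and 0 lower. DESeq2 called 856 genes, limma with library quality weights 5592 (22 of the 32 higher, 2 lower; the weight of DMSO 3 was 0.0200), limma on log2(TPM + 1) 135 and on log2(TPM + 0.1) 88 (2 of the 32 higher). The TPM settings moved the median log2 fold change of all genes from -0.01 to 0.31 and 0.40. Leaving out each library in turn gave 0 to 5731 genes, with 0 to 22 of the 32 higher and 0 to 3 lower, the highest values without DMSO 3; with DMSO 3 kept, 0 to 17 genes were called.

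Deviations from the group mean had correlations of -0.19, 0.14 and -0.01 between same-numbered libraries of the groups. Between unlike-numbered libraries they ran from -0.19 to 0.21. The DMSO mean is shifted by DMSO 3, so these correlations cannot decide whether the numbers pair the libraries. With the replicate block 0 genes and 0 of the 32 higher were called by edgeR, beside 1384 genes at an unadjusted p under 0.05.

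On the 5 libraries without DMSO 3, settings chosen after seeing the data left all 32 signs as in the edgeR fit on those libraries. DESeq2 called 4505 genes (22 of the 32 higher, 4 lower), limma on log2(TPM + 1) 3046 (20 and 2) and DESeq2 size factors in edgeR 5733 (22 and 3). Also leaving out DMSO 1 or DMSO 2 gave 4588 (20 and 2) and 4510 (22 and 4), with the spread taken from CAPE alone. Also leaving out CAPE 1, 2 or 3 gave 5391 (21 and 2), 5079 (23 and 4) and 4905 (20 and 3).

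Signs turned for genes not called with 6 libraries. PFKP (0.00) became -0.026 with DESeq2 size factors, -0.027 with no filter and -0.050 with DESeq2, and HK1 became 0.031 with upper-quartile factors. With quality weights HK1 was 0.33, PFKL 0.30, PFKFB2 -0.071, ALDOA 0.11, TPI1 0.25, GAPDH 0.44, PGAM1 0.16, ENO3 0.25, PKM 0.12, LDHA 0.15 and SLC16A3 0.44. On log2(TPM + 1) HK1 was 0.34, PFKL 0.31, TPI1 0.027, GAPDH 0.17, PGAM1 0.020, ENO3 0.63, LDHA 0.23, LDHB 0.0073, PDHA1 0.014 and SLC16A3 0.31, and on log2(TPM + 0.1) the same genes were 0.34, 0.31, 0.027, 0.17, 0.020, 0.64, 0.23, 0.0073, 0.014 and 0.31. Over the left-out libraries HK1 ran from -0.30 to 0.34, PFKL from -0.46 to 0.30, PFKP from -0.23 to 0.54, PFKFB2 from -0.083 to 0.45, ALDOA from -1.10 to 0.11, TPI1 from -0.998 to 0.26, GAPDH from -0.76 to 0.45, PGAM1 from -0.79 to 0.17, ENO3 from -0.38 to 0.25, PKM from -0.85 to 0.12, LDHA from -0.52 to 0.15 and SLC16A3 from -0.46 to 0.45. The cause was not tested.

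HK2 missed the threshold with upper-quartile factors (edgeR adjusted p = 0.0505), and on log2(TPM + 1) limma called SLC2A1 and ALDOC but not SLC2A3 or HK2. On log2(TPM + 0.1), with all 6 libraries, PFKFB4 also lost its call (log2 2.76, limma adjusted p = 0.0657), as did SLC2A3 and HK2, and SLC2A1 and ENO2 were called.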
